A study of Homo sapiens with 4 samples.

Results

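The long intergenic RNAs that carry a LINC symbol were followed through hematopoietic differentiation of BC1, a human induced pluripotent stem cell (hiPSC) line. Members were selected on their measured level: a gene was taken when its symbol was LINC followed only by digits and it had 1 FPKM (fragments per kilobase of transcript, scaled to the mapped fragments of the library) or more in at least 1 of 4 libraries. This left 169 of the 1879 genes with such a symbol, among 17137 genes of any kind that passed the same threshold. Of the others, 1177 were listed at 0 in all 4 libraries and 533 were above 0 but under 1 FPKM. Members were then grouped by the library in which their FPKM was highest, with 46 members in the BC1 group, 26 in the APLNR+ group, 37 in the CD31+CD34+ group and 60 in the CD43+ group.

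The libraries came from undifferentiated BC1 cells and from 3 populations obtained from that line. APLNR+ mesoderm cells were taken at day 2, after culture with activin A and BMP4. Medium with VEGF and bFGF followed, and from it came the CD31+CD34+ hemogenic endothelial progenitors (HEPs) of day 5 and the hematopoietic progenitors (CD43+ HPCs) of day 8. All populations share the BC1 genotype, and no transgene or gene deletion is stated for them. There was 1 library for each population, so no difference has a replicate check, no test was possible and no p-value is given. Intervals of a ratio between libraries are exact 95% intervals from approximate fragment counts and cover counting error only, not the spread between cultures or sorts. In bulk RNA, fewer cells of a type and less RNA per cell cannot be told apart.

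Long intergenic RNAs are transcribed from their own promoters between protein-coding genes, are usually spliced and polyadenylated, and code for no long protein. Most are present at far lower levels than messenger RNAs and in fewer cell types. The LINC symbols are a naming scheme and not a family defined by sequence, and a few genes turn out on closer annotation to encode small proteins or to be the far side of a divergent promoter.

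The annotation of the members reflected this. GENCODE release 29 lists 124 of them as lincRNA, 13 as processed transcript, 12 as antisense and 3 as bidirectional promoter RNA. A further 5 are annotated as protein-coding: LINC00116, which encodes the mitochondrial microprotein mitoregulin (MTLN), LINC00094 (BRD3OS), LINC00854, LINC00959 and LINC01125. RefSeq held 168 of the members, 30 of them under another symbol, of which 7 end in DT for divergent transcript. The median annotated transcript was 801.5 bases long with 3 exons, against 1047 bases and 5 exons for protein-coding genes.

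The recovered depth was between 19600000 and 23600000 fragments, at which 1 FPKM of a transcript of 801.5 bases stands for 10.7 fragments in BC1, a counting error of 30.6%. The highest value of a member rested on a median of 46.0 fragments, and 19 members had fewer than 10. APLNR, CD34 and SPN, which encodes CD43, were highest in the population sorted for each, while PECAM1 (CD31) was higher in CD43+, at 126 FPKM, than in CD31+CD34+, at 93.1 FPKM. Mesoderm markers (MESP1, MIXL1, EOMES, HAND1) summed to 1133 FPKM in APLNR+ and at most 7.89 FPKM elsewhere. Pluripotency markers summed to 2752 FPKM in BC1 and to 880, 30.2 and 22.7 FPKM in the 3 populations that followed. In APLNR+ POU5F1 had 573 FPKM and TDGF1 260, but NANOG 0.957 and SOX2 0.766. The sums in CD31+CD34+ and CD43+ were mostly DPPA4, at 27.8 and 22.5 FPKM. Endothelial markers (CDH5, TIE1, KDR, SOX7) summed to 1104 FPKM in CD31+CD34+ and 119 in CD43+. Hematopoietic markers (GATA1, RUNX1, TAL1, ITGA2B) summed to 206 and 1493 FPKM there. Markers of other lineages were carried by few genes of each list. Of the definitive endoderm list, HHEX, also a factor of endothelium and blood, had 87.9 FPKM in CD31+CD34+, SOX17 had 11.8 and FOXA2 and CXCR4 were under 1 FPKM in every library. Of the neural list, OTX2 had 82.8 FPKM in APLNR+, SOX1 was listed at 0 there and PAX6 was at most 0.302 FPKM in any library. Their part in the members' levels was not tested.

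Few LINC genes reached 1 FPKM, and those that did were low. The 169 members were 8.99% of all LINC genes, beside 13.1% of other long non-coding genes and 70.2% of protein-coding genes. Their median highest value was 2.83 FPKM, against 2.54 FPKM for other long non-coding genes and 16.8 FPKM for protein-coding genes, and 32 of the 169 reached 10 FPKM. Together they made up between 0.106% and 0.130% of the summed FPKM of a library, and the 5 most abundant took 42.5% of the members' sum in BC1. At the threshold, LINC01905 (1.01 FPKM), LINC02453 (1.02 FPKM) and LINC00304 (1.02 FPKM) were just inside, and LINC00642 (0.994 FPKM), LINC00877 (0.973 FPKM) and LINC01336 (0.966 FPKM) just outside.

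The largest group was the one highest in CD43+ HPCs. By library of highest FPKM, 35.5% of members fell to CD43+, where the background over all 17137 genes was 24.0%, and 15.4% fell to APLNR+, where it was 22.7%. The shares for BC1 (27.2%, background 27.7%) and CD31+CD34+ (21.9%, background 25.5%) were near those of all genes. For CD31+CD34+ this did not hold among the 50 members with 5 FPKM or more, where its share was 14.0% (7 members, all genes of that level 26.1%). Since the grouping is the selection itself, these shares are a description. Similar shares were found beyond the LINC symbols: other long non-coding genes had 34.4% highest in CD43+ and 14.3% in APLNR+, while protein-coding genes had 22.7% and 23.7%. Protein-coding genes of the same low level, 1 to 5 FPKM at their highest, had 21.0% in CD43+, where members of that level had 34.5%. Among the non-coding RNAs with other names, the nuclear RNAs NEAT1 and MALAT1 also had their highest values in CD43+, NEAT1 at 7.56, 16.4, 63.0 and 616 FPKM in the order of differentiation and MALAT1 at 31.0, 49.2, 206 and 343 FPKM. They are examples from a list in which 28 RNAs had 1 FPKM or more. More of those 28 were highest in BC1 (11) than in CD43+ (8).

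**Figure D1:**
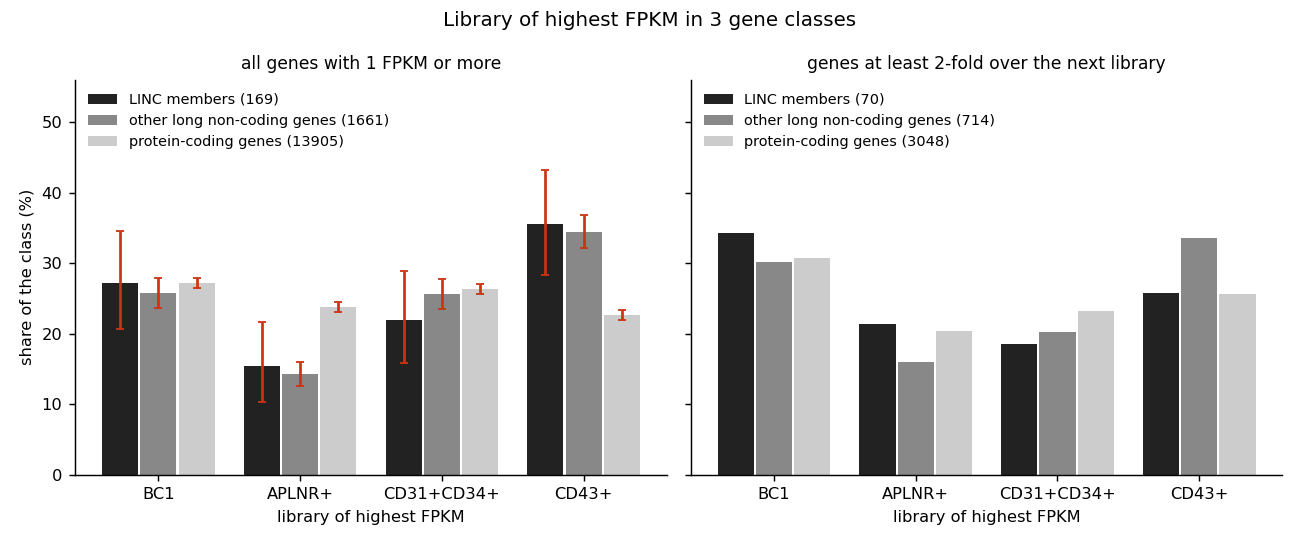
Share of each gene class (vertical axis, %) whose highest FPKM was in the library on the horizontal axis, for LINC members (black), other long non-coding genes (dark grey) and protein-coding genes (light grey). On the left, over all genes with 1 FPKM or more, bars for CD43+ stand at 35.5%, 34.4% and 22.7%, with exact 95% binomial intervals as red lines. These intervals take genes as independent draws and do not cover the spread between cultures. They are no test of the grouping, which is the selection itself. On the right, over genes at least 2-fold above their next library, the members' bar for CD43+ is 25.7% and that of protein-coding genes 25.6%.

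Much of the CD43+ group was separated from its next library by little. In 70 of the 169 members (41.4%) the highest FPKM was at least 2-fold that of the next library, where the background over all genes was 25.7% and other long non-coding genes had 43.0%. In the CD43+ group 18 of 60 members had that margin (30%, background among all genes highest in CD43+ 28.5%), which is near the background. It was held by 15 of 26 in the APLNR+ group (57.7%, background 23.2%), 24 of 46 in the BC1 group (52.2%, background 28.5%) and 13 of 37 in the CD31+CD34+ group (35.1%, background 22.1%). Other long non-coding genes had the margin in 48.1% of those highest in APLNR+, 50.4% in BC1, 34.1% in CD31+CD34+ and 42.0% in CD43+. Over those 70, CD43+ held 25.7% and BC1 34.3%, beside 26.7% and 30.8% of all genes with the same margin. By counting error alone, highest and next library were separated in 84 members and not in 81, and 4 had no estimate. The highest library was chosen by these same values and no such count was made over other genes, so the count is a description.

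A member's level was concentrated in few libraries. The highest library held a median of 49.6% of a member's FPKM summed over the 4 libraries, where an even gene has 25%; the median was 48.0% for other long non-coding genes and 36.9% for protein-coding genes. Between 1 and 2 FPKM the medians were 53.3% for members and 49.1% for protein-coding genes. The protein-coding median was lower at higher levels, while the members' fell and then varied without a steady course. At 2 to 5 FPKM the medians were 48.1% over 57 members and 43.5% for protein-coding genes. At 5 to 10 FPKM they were 42.1% over 18 members and 37.6%. At 10 to 20 FPKM they were 50.4% over 16 members and 35.6% over 2661 protein-coding genes. At 20 to 50 FPKM they were 58.2% over 10 members and 34.7%, and above 50 FPKM 47.0% over 6 members and 35.2%. In 25 members (14.8%) at least 90% was in a single library, which was BC1 for 12 of them, APLNR+ for 6, CD43+ for 4 and CD31+CD34+ for 3. The background over all genes was 5.11%, and it was 11.2% for other long non-coding genes and 3.05% for protein-coding genes. These backgrounds are not matched for level. Between 1 and 2 FPKM the shares were 16.1% of members, 12.1% of all genes and 5.89% of protein-coding genes. At 2 to 5 FPKM they were 8.77%, 6.79% and 4.31%. In each range from 5 FPKM on, with 6 to 18 members, the members' share was at least 10% and that of all genes at most 3.91%. Of the members, 64 (37.9%) had 1 FPKM or more in only 1 library and 43 (25.4%) in all 4. Other long non-coding genes had much the same breadth, with 39.7% in 1 library and 28.4% in all 4, while 74.7% of protein-coding genes had 1 FPKM in all 4.

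**Figure D2:**
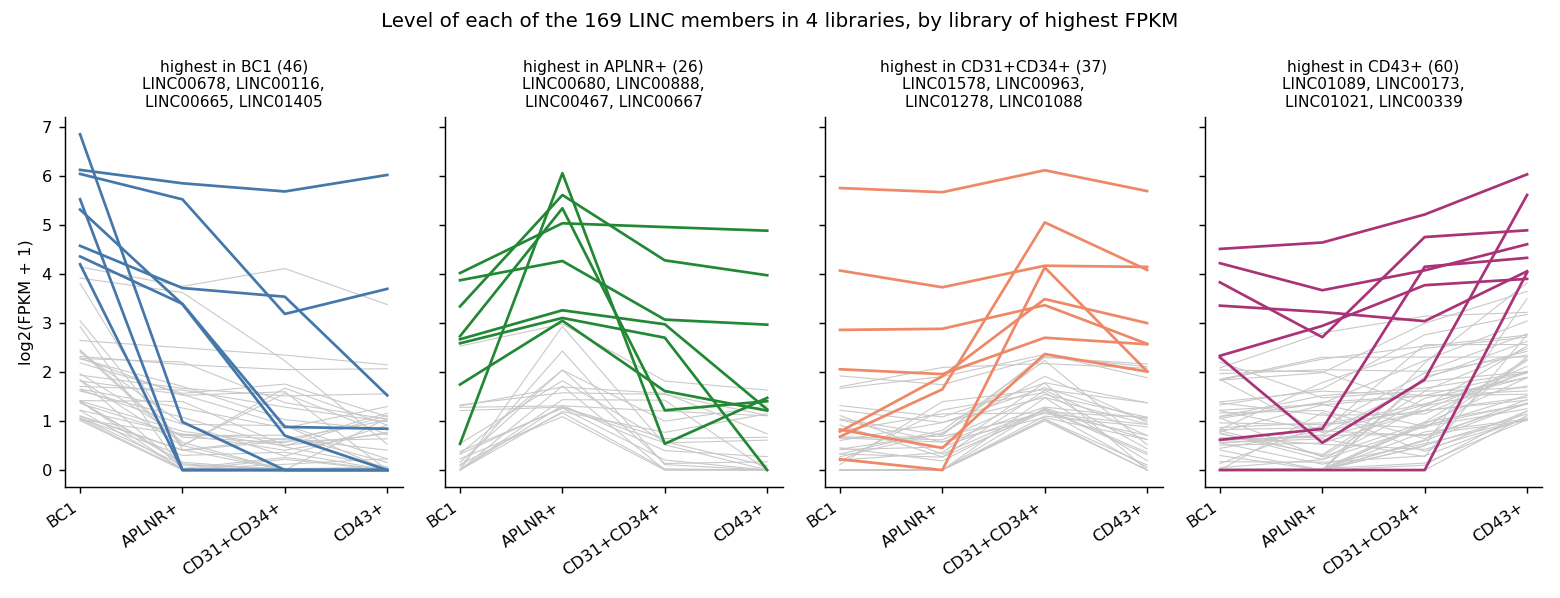
Level of every member as log2(FPKM + 1) on the vertical axis in the 4 libraries on the horizontal axis, 1 line a member, in 4 panels by library of highest FPKM. Coloured lines are the 8 members with the highest FPKM in each panel and grey lines the others; the 4 highest are named above. LINC00678 goes from 115 FPKM in BC1 to 0.975 in APLNR+, while LINC00116 stays between 50.5 and 68.8 FPKM in all 4.

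The BC1 group held members that were abundant in BC1 and near or at 0 in APLNR+. LINC00678, a transcript of pluripotent stem cells on chromosome 11 (chr11:27617626-27634627, GRCh38, minus strand), had 115 FPKM in BC1, 0.975 FPKM in APLNR+ and was listed at 0 in CD31+CD34+ and CD43+. Its level in BC1 was 118-fold that in APLNR+ (95% interval 65.7 to 237). LINC01405 (chr12:110936585-110958208, plus strand) was at 45.1 FPKM and LINC01194 at 17.4 FPKM in BC1, and both were listed at 0 in the other 3 libraries. LINC00458, a long non-coding RNA of human pluripotent cells, was lower at each step, at 38.8, 9.44, 0.627 and 0 FPKM in the order of differentiation. LINC00599, the host of the microRNA miR-124-1, had 13.0, 0.333, 0 and 0 FPKM, and LINC01108 had 7.25, 0.417, 0 and 0 FPKM. LINC01356 was less steep, at 22.8, 12.1, 10.6 and 1.88 FPKM in the order of differentiation. A different course was seen in LINC00665, at 65.0 FPKM in BC1 and still 45.0 in APLNR+, then 8.10 in CD31+CD34+ and 11.97 in CD43+. LINC00116, which is protein-coding, was also highest in BC1 but nearly even, at 68.8, 56.8, 50.5 and 64.0 FPKM, and its highest value was within counting error of the next (ratio 1.08, 0.90 to 1.28).

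Of the 15 members at least 2-fold higher in APLNR+ mesoderm cells than in any other library, LINC00680, LINC00888 and LINC00467 were the most abundant. LINC00680, annotated as a transcribed pseudogene (chr6:57946074-57961501, minus strand), had 0.448, 65.6, 0.450 and 1.78 FPKM. Its level in APLNR+ was 37.0-fold that of CD43+, the next library (27.8 to 49.5), and 146-fold that of CD31+CD34+ (87.3 to 269). LINC00680 shares 1084 bases at 97.3% identity with GUSBP1, which was nearly even at 4.41, 3.52, 3.49 and 3.66 FPKM. LINC00467 (chr1:211382803-211435333, plus strand) had 5.64, 39.6, 1.33 and 1.65 FPKM, and APLNR+ was 7.01-fold above BC1 (5.26 to 9.48). LINC00888, now named SNHG33 as a host of small nucleolar RNAs, had 9.12, 47.9, 18.4 and 14.7 FPKM, a smaller margin of 2.60-fold over CD31+CD34+ (2.28 to 2.97). LINC00479 and LINC02192 were less abundant, at 6.63 and 4.39 FPKM in APLNR+ and at most 0.430 FPKM in any other library, margins of 15.4-fold (5.14 to 53.1) and 54.2-fold (14.6 to 453) over the next. By contrast LINC00667, at 15.2, 31.8, 30.1 and 28.5 FPKM, reached a level in APLNR+ that it kept, and its highest value was within counting error of the next.

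In CD31+CD34+ HEPs the most abundant member was LINC01578, now named CHASERR, which restrains its neighbour gene CHD2. It was nearly even over the libraries, at 53.0, 49.9, 68.5 and 50.7 FPKM, and CHD2, 488 bases away, had 16.7, 17.5, 26.9 and 24.0 FPKM. LINC00963 (chr9:129483451-129513686, plus strand) had 0.606, 2.13, 32.2 and 16.0 FPKM, and CD31+CD34+ was 2.02-fold above CD43+, the next library (1.66 to 2.48). LINC01088 had 0.166, 0, 16.6 and 3.04 FPKM and was 5.46-fold lower in CD43+ than in CD31+CD34+ (3.59 to 8.49). LINC00894 had 0.724, 2.77, 10.2 and 7.00 FPKM. It is 97.4% identical over 1035 bases to LINC00893, another member, which was highest in CD43+ at 2.71 FPKM, and 99.4% identical over 1053 bases to AC244197.3, which was highest in APLNR+ at 3.71 FPKM, so the division of reads among these genes is uncertain.

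In CD43+ HPCs the most abundant member, LINC01089, climbed from APLNR+ on, and others were high there alone. LINC01089 had 21.8, 24.0, 36.1 and 64.5 FPKM, and CD43+ was 1.79-fold above CD31+CD34+ (1.61 to 1.99). Its levels in BC1 and APLNR+ did not differ beyond counting error (ratio 1.10, 0.94 to 1.29). LINC01089 overlaps RHOF on the same strand, which had 19.9, 23.1, 21.0 and 36.8 FPKM, and reads of the pair cannot be fully separated. LINC00173 (chr12:116533422-116536518, plus strand), which has been described in granulocytes, had 3.93, 0.472, 2.60 and 48.0 FPKM, 12.2-fold above the next library, BC1 (7.53 to 21.0). LINC01094 was listed at 0 in the first 2 libraries and had 0.406 FPKM in CD31+CD34+ and 10.3 in CD43+. LINC00444, which is not in GENCODE 29 and has no fragment estimate, was listed at 0 in 3 libraries and had 15.4 FPKM in CD43+. LINC01637 had 0.477, 0.553, 0.209 and 5.78 FPKM. A second kind of course was already high in CD31+CD34+: LINC02506 had 0.534, 0.791, 16.7 and 19.1 FPKM, and LINC01021, the p53-responsive RNA PURPL, had 13.2, 5.55, 26.0 and 28.7 FPKM. In both of these CD31+CD34+ and CD43+ did not differ beyond counting error (0.92 to 1.41 for LINC02506 and 0.94 to 1.29 for LINC01021).

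Some LINC genes with roles described in other settings were low or not seen. LINC00261, a transcript of definitive endoderm beside FOXA2, was at most 0.000499 FPKM, and FOXA2 itself was at most 0.588 FPKM. Of 30 LINC symbols listed from general knowledge, 17 were members, 7 were in the table under 1 FPKM and 6 were not in the table under that symbol. Of 35 long non-coding RNAs with other kinds of name, 34 were in the table and 28 had 1 FPKM or more, with 11 highest in BC1, 8 in CD43+, 5 in CD31+CD34+ and 4 in APLNR+.

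Between successive populations few members changed by a large step. A difference of at least 2 in log2(FPKM + 1) was used to name large steps. From BC1 to APLNR+, 5 members were higher by that much (2.96%, background over all genes 2.68%) and 6 lower (3.55%, background 2.29%). The 5 were LINC00680, LINC00479, LINC00467, LINC02192 and LINC00888, and the 6 were LINC00678, LINC01405, LINC01194, LINC00599, LINC00545 and LINC01108. From APLNR+ to CD31+CD34+, 5 were higher (2.96%, background 4.08%), namely LINC01088, LINC00963, LINC02506, LINC01218 and LINC01021, and 7 lower (4.14%, background 3.15%). These 7 were the APLNR+ group's LINC00680, LINC00467, LINC00479 and LINC02192 and the BC1 group's LINC00458, LINC01315 and LINC00665. From CD31+CD34+ to CD43+, 4 were higher (2.37%, background 2.28%), which were LINC00444, LINC00173, LINC01094 and LINC01637, and 3 lower (1.78%, background 4.32%), LINC01980, LINC01088 and LINC01356. Such a step can be met only by genes of 3 FPKM or more, a level above the members' median highest value, so these shares are bounded by level. Among the 50 members with 5 FPKM or more, 8% were higher and 12% lower from BC1 to APLNR+ (all genes of that level 3.51% and 2.92%), 10% and 12% from APLNR+ to CD31+CD34+ (5.47% and 4.13%), and 8% and 6% from CD31+CD34+ to CD43+ (2.91% and 5.88%), each share standing for 3 to 6 members. The lower share of falls at the last step was therefore not seen at that level.

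With smaller steps the members departed most from the background at 2 points. More were higher from APLNR+ to CD31+CD34+, and fewer were lower from CD31+CD34+ to CD43+. With a difference of at least 1, 19 members were higher and 22 lower from BC1 to APLNR+ (background 9.15% and 9.32%, members 11.2% and 13.0%). From APLNR+ to CD31+CD34+, 33 were higher and 19 lower (background 13.0% and 11.4%, members 19.5% and 11.2%). From CD31+CD34+ to CD43+, 13 were higher and 14 lower (background 7.63% and 13.5%, members 7.69% and 8.28%). Of other long non-coding genes, 14.4% were higher from APLNR+ to CD31+CD34+ and 10.9% lower from CD31+CD34+ to CD43+. The share of falls at the last step turned with the scale: with a step of 2 in log2(FPKM + 0.1), 19 members were lower (11.2%, background 9.89%). On that scale 36 members were higher from APLNR+ to CD31+CD34+ (21.3%, background 8.48%). From BC1 to APLNR+ 19 were then higher and 22 lower (11.2% and 13.0%, background 5.91% and 6.41%). The members' median differences were 0, 0.13 and 0 on the log2 scale at the 3 steps, and those of all genes 0, 0.01 and -0.08. Between the ends of the series, BC1 and CD43+, 43 members were higher by at least 1 and 33 lower (25.4% and 19.5%, background 15.2% and 18.9%), with a median of 0.25 against -0.06 for all genes. Other long non-coding genes had a median of 0.13 in that comparison.

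**Figure D3:**
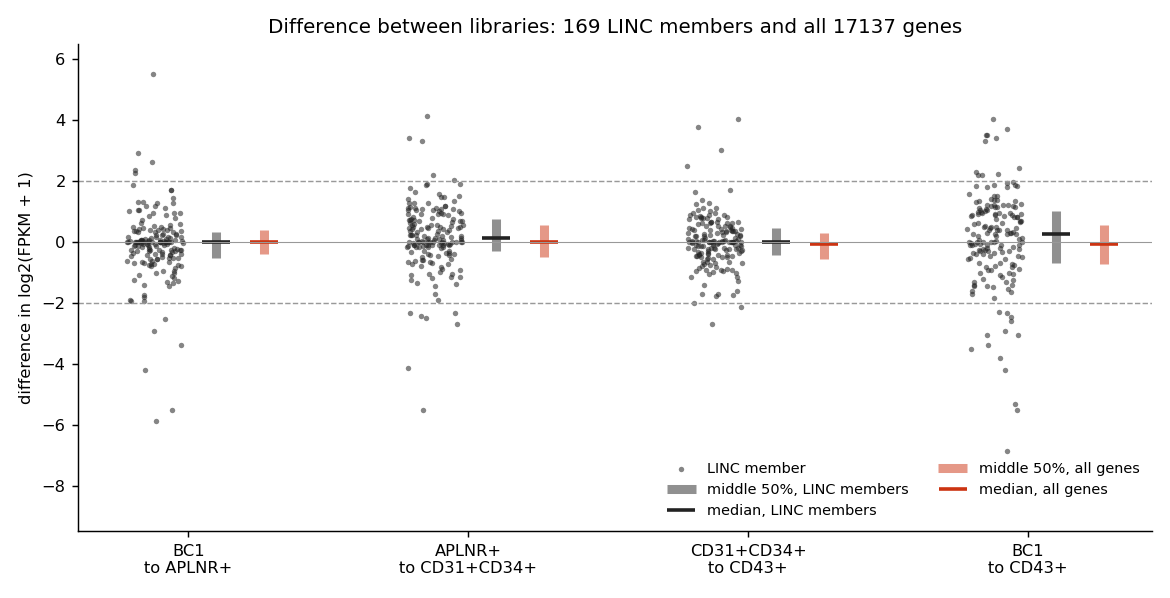
Difference in log2(FPKM + 1) on the vertical axis between the libraries named on the horizontal axis, with 1 point for each of the 169 members. Thick bars span the middle 50% of members (grey) and of all 17137 genes (red) with medians as short lines, and dashed lines mark 2 and -2. Most points lie between the dashed lines, and the members' median in the comparison of BC1 with CD43+ is 0.25 where that of all genes is -0.06.

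Each member was next set against its nearest expressed protein-coding gene. Of the 169 members, 22 overlapped that gene, 8 of them on the same strand and 14 on the opposite one, 44 lay within 10 kb and the rest further off. The library kit is not a stranded kit, so reads from shared stretches of an overlapping pair cannot be told apart. Member and neighbour were highest in the same library in 75 pairs (44.4%). The share was 43.2% for other long non-coding genes and 32.9% for protein-coding genes and their own nearest protein-coding gene. It did not fall with distance: 40.9% of overlapping pairs, 47.7% within 10 kb, 42.9% from 10 to 100 kb and 45.0% of pairs over 100 kb apart. It was 50.0% for members highest in APLNR+ and in CD43+, 39.1% for BC1 and 37.8% for CD31+CD34+. Other long non-coding genes had 53.2% in APLNR+, 37.4% in CD43+, 43.3% in BC1 and 45.4% in CD31+CD34+. Protein-coding genes had 30.7%, 32.9%, 34.5% and 33.1% in that order. For the 25 members with an expressed protein-coding gene that starts within 2000 bases on the opposite strand, 7 pairs (28.0%) were highest in the same library. No share of other genes was computed for such pairs.

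**Figure D4:**
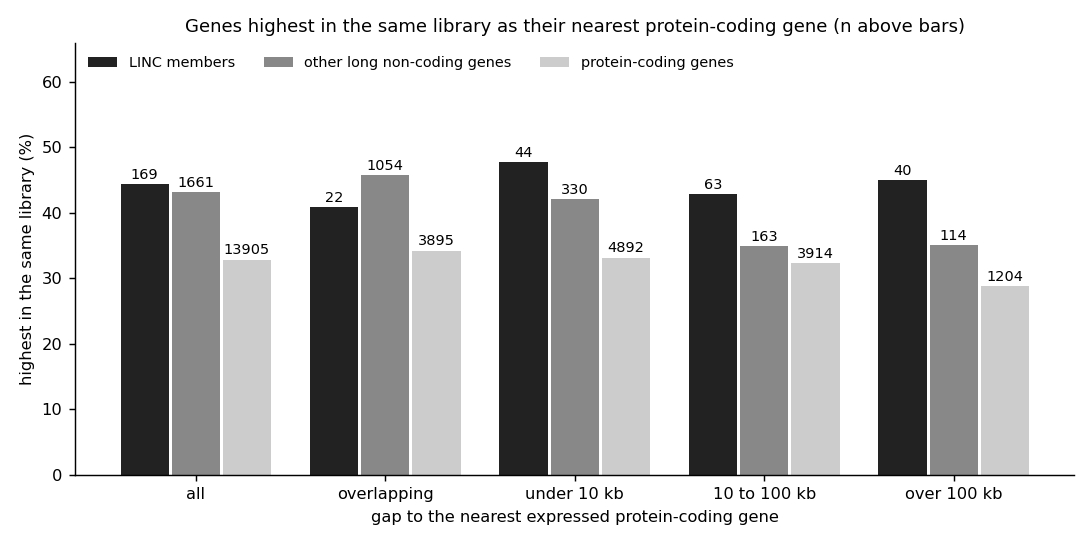
Share of genes (vertical axis, %) highest in the same library as their nearest expressed protein-coding gene, by the gap between them on the horizontal axis, for LINC members (black), other long non-coding genes (dark grey) and protein-coding genes (light grey), with the number of genes above each bar. The members' bars lie between 40.9% and 47.7% and those of protein-coding genes between 28.8% and 34.2%.

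Pairs of both kinds were found among abundant members, and among the 50 members with 5 FPKM or more 50.0% were highest in the same library as their neighbour. The share of other genes of that level was not computed. LINC00678 lies 20266 bases from BDNF, which had 1.93 FPKM in BC1 and its highest value, 3.93 FPKM, in CD43+. LINC00680 lies 299225 bases from PRIM2, which was highest in BC1 at 14.1 FPKM and had 5.67 FPKM in APLNR+. LINC00458 and its nearest expressed gene CNMD, 1375971 bases away, were both highest in BC1, CNMD at 66.6, 2.30, 0.916 and 0.0822 FPKM. LINC01094 and ANXA3, an annexin of myeloid cells 35452 bases away, were both highest in CD43+, ANXA3 at 8.57, 1.04, 2.41 and 21.5 FPKM.

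Some members lay beside EOMES or RUNX1, well-known regulators of this differentiation, and others beside LCP2, EMCN or JAKMIP1. These pairs were picked after their values had been seen. LINC01980, 80051 bases from EOMES, the T-box factor of early mesoderm, had 5.01, 7.60, 5.50 and 0 FPKM, while EOMES had 0.244, 205, 0.280 and 0 FPKM. Both were highest in APLNR+, but LINC01980 was only 1.38-fold above the next library. LINC01426 lies 2915 bases from RUNX1, the master regulator of blood emergence, and had 0.343, 0.670, 3.70 and 0.428 FPKM where RUNX1 had 0.0962, 4.15, 60.1 and 137 FPKM. The pair differed at the last step, where LINC01426 was lower and RUNX1 higher in CD43+ than in CD31+CD34+. LINC01366 and LCP2, an adaptor protein of blood cells, went the same way, with 0.326, 0, 2.64 and 5.18 FPKM for LINC01366 and 0.303, 0.192, 54.0 and 106 FPKM for LCP2. LINC01218, inside EMCN (endomucin) on the same strand, had 0.228, 0, 3.55 and 13.1 FPKM and EMCN 0, 0.151, 3.44 and 4.36 FPKM, and reads of such an overlapping pair cannot be fully separated. LINC02495 starts 142 bases from JAKMIP1 on the other strand, and the 2 were highest in APLNR+, at 1.40 and 18.5 FPKM.

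Promoters were compared for the 120 members found in a RefSeq table of 27305 promoters (GRCh38.p14), each 250 bases before to 50 bases after the start. Words for 6 factor families were searched on both strands. ATGCAAAT, the octamer of POU factors, was in 1 of 120 member promoters (0.833%), that of LINC00641, beside 1.80% of all promoters. TCACACC, the word of T-box factors, was in 3 (2.50%, all promoters 3.43%). AGATAA, bound by factors such as GATA1, was in 9 (7.50%, all promoters 10.5%), and CCGGAAG, bound by ETS factors, in 15 (12.5%, all promoters 10.7%). TGTGGTT, bound by RUNX factors, was in 2 (1.67%, all promoters 4.28%), LINC00638 and LINC00854, both highest in CD43+. The core promoter word TATAAA was in 7 (5.83%, all promoters 11.95%). The ETS word was in 4 of 17 promoters of the APLNR+ group, 4 of 24 of the CD31+CD34+ group, 5 of 46 of the CD43+ group and 2 of 33 of the BC1 group. The median content of G and C was 60.0% in members and 58.3% in all promoters. With 1 to 15 matches a word, the groups were not compared further.

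The promoter of the most abundant member of each group that the table holds is shown, to give the sequence from which these RNAs start. They belong to LINC00116 of the BC1 group (chr2:110212498-110212797, minus strand), LINC00888 of the APLNR+ group (chr3:183447358-183447657, plus strand), LINC01578 of the CD31+CD34+ group (chr15:92882593-92882892, plus strand) and LINC01089 of the CD43+ group (chr12:121802897-121803196, minus strand). Capitals mark the 50 bases from the start on. The RefSeq start of LINC00116 lies 32873 bases from the outermost start in GENCODE 29, that of LINC01089 960 bases. None of the 6 words is in these windows, and the content of G and C was 58.0%, 62.7%, 74.7% and 61.0% in that order.
LINC00116: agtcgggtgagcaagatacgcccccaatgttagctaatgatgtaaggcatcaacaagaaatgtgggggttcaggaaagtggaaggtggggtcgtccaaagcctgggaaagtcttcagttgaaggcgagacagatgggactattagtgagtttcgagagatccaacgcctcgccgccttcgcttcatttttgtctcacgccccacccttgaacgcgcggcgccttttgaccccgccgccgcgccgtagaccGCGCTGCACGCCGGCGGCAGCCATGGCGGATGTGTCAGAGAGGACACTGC
LINC00888: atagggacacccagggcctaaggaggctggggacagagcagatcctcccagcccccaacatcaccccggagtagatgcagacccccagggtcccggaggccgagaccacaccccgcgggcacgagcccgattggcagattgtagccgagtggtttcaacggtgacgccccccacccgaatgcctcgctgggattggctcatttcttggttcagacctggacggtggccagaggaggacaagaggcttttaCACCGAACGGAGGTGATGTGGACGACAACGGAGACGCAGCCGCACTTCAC
LINC01578: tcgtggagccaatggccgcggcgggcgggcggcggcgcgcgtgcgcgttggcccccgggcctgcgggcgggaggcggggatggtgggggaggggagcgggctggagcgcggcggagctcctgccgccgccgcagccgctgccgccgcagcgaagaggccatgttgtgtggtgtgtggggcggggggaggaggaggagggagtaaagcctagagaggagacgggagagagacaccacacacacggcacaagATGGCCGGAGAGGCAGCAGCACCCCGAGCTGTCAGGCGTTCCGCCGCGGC
LINC01089: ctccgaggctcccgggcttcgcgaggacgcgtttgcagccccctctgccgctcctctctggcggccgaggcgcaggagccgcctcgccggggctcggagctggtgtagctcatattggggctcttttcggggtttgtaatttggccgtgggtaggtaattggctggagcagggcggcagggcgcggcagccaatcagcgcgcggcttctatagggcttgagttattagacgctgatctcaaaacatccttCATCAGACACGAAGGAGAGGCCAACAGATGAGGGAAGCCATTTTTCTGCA

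Related copies limit some of these values. A transcript of 18 members aligned over at least 300 bases at 97% identity or more with that of an expressed gene elsewhere, which for 8 of them was another member. They include LINC00623 and LINC00869 (737 bases, 99.6%), LINC01001 and LINC01002 (918 bases, 98.5%) and LINC00893 and LINC00894. LINC01001 was highest in CD43+ at 5.75 FPKM and LINC01002 in APLNR+ at 18.2 FPKM, and how shared reads were assigned was not tested.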

How the data were processed

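RNA of BC1 cells and of APLNR+, CD31+CD34+ and CD43+ cells was sequenced from Illumina TruSeq RNA libraries, 1 a population. The authors deposited gene-level FPKM values. The submitters' processing notes name BWA, Bowtie, RSEM and hg19, but 99.9964% of single-row identifiers of the same version had the start and end of GENCODE 29 (GRCh38), so positions are on GRCh38, and the program and build remain uncertain. Which sequencing provider made each library is not given in the sources used here. Rows of an identifier were summed. Depth was estimated from steps between low values: from 19600000 to 23600000 fragments a library, with 93.2% to 95.1% of low values within 0.1 of a whole fragment.

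Members were symbols matching LINC and digits with 1 FPKM or more. The members, gene lists and the rule for named genes (the 8 highest a group, the 5 largest differences in each direction a step, the 6 with the highest lowest value, 3 on each side of the threshold, a list of 30 symbols, and nearest genes) were chosen with earlier results of these data known. Differences are in log2(FPKM + 1), which understates changes of low genes. With 1 library a population no test was run. Intervals of ratios are exact Clopper-Pearson 95% intervals on approximate fragments, from the median annotated transcript length. Those of shares are binomial over genes and describe no spread between libraries. Alternatives were other thresholds, pseudocounts, scalings and neighbour definitions. Python 3.11.15, pandas 2.3.3, SciPy 1.17.1 and BLAST+ 2.17.0 were used, and depth and neighbour code was checked on simulated data. A comparison of stretches shared between member transcripts is not reported here.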

Additional observations from a re-analysis of the deposited data

How the results depend on the processing

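No paired analysis was possible because each population had 1 library and the results come from no test. Of 87 comparisons of a summary value with an alternative, 64 stayed within the tolerance (1.5 times for a count, the 95% binomial interval for a share, 0.1 for a median difference and 5 percentage points for the median share), and no median difference beyond 0.1 changed sign. Some of the 64 could not fall outside the tolerance. A large step needs 3 FPKM or more, so its counts over genes above 0 had to equal the main ones. Many settings also share most of their members, so the 64 do not measure robustness. The number of members was 107 at 2 FPKM, 50 at 5 FPKM and 702 above 0. The CD43+ share was 23.9% above 0 and 25.7% with a 2-fold margin (all genes 23.2% and 26.7%). In both settings BC1 and not CD43+ held the most members (228 against 168, and 24 against 18). The CD31+CD34+ share was 14.0% at 5 FPKM (all genes 26.1%). Members higher and lower by the step changed from 5 and 6, 5 and 7, and 4 and 3 at the 3 transitions to 19 and 22, 33 and 19, and 13 and 14 with a step of 1, and to 19 and 22, 36 and 17, and 10 and 19 with a pseudocount of 0.1, so the balance of higher and lower turned at the last 2 transitions. With that pseudocount the members' shares were 11.2% and 13.0%, 21.3% and 10.1%, and 5.92% and 11.2%, beside 5.91% and 6.41%, 8.48% and 7.85%, and 4.71% and 9.89% of all genes. The mean difference from BC1 to APLNR+ was -0.11 where the median was 0. The median from APLNR+ to CD31+CD34+ was 0.27 with a pseudocount of 0.1 and 0 both at 5 FPKM and above 0. The median share in the highest library was 71.8% above 0. Upper-quartile scaling moved the median of all genes by -0.11 from BC1 to APLNR+. With a pseudocount of 0.1 all 129 named differences of 1 or more kept their sign and were larger, 70 of them by more than 1. Depth leaves 62 members with under 30 fragments behind their highest value.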
